A study of Arabidopsis thaliana with 8 samples.

Results

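Transcript levels of 9 Arabidopsis thaliana genes known to respond to low oxygen were followed in imbibed seeds. They are PDC2 (AT5G54960), which encodes a pyruvate decarboxylase, CML38 (AT1G76650), which encodes a calmodulin-like protein, and AT3G10020, AT4G27450, AT1G19530, AT4G39675, AT1G33055, AT3G23170 and AT4G24110. The genes were chosen by name as nuclear low-oxygen genes, and each was matched to 1 probe set of the array that is paired with that gene alone. They are 9 of the 13350 genes that the array's annotation pairs with such probe sets, and all 9 passed the filter on dim probe sets.

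Plant tissue that runs short of oxygen makes ATP by glycolysis and regenerates NAD+ by fermentation. Pyruvate decarboxylase removes carbon dioxide from pyruvate, and alcohol dehydrogenase then reduces the acetaldehyde to ethanol, while lactate dehydrogenase reduces pyruvate directly. Transcription of the low-oxygen genes is driven by group VII ethylene response factors, which are degraded through the N-degron pathway while oxygen is present. Imbibed seeds are a place where this response is known to matter, since the seed coat and rapid respiration limit the oxygen inside.

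Seeds of 2 genotypes were imbibed for 24 h at 2 temperatures, with 2 arrays for each of the 4 groups. 35S-GSH1 is a line in the Col-0 background that overexpresses GSH1, the gene of the first enzyme of glutathione synthesis, and Col-0 is the wild type. The groups were 35S-GSH1 at 4 °C, 35S-GSH1 at 22 °C, Col-0 at 4 °C and Col-0 at 22 °C, and the labels call the seeds at 4 °C vernalized. 35S is a viral promoter that is active in most plant tissues, and the number of transgenic lines is not stated in the labels. The labels do not say whether replicates are separate seed lots, and p-values here cover only the spread between the samples given, which may be technical. The level of GSH1 itself was not analysed here, so the genotypes were taken from the labels alone.

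The files hold one probe-set intensity per array on a linear scale. The median intensity per array ran from 12.3 to 16.2, and Pearson's r between replicate arrays was 0.962 to 0.972 over the 13648 tested probe sets. Between arrays of different genotypes at the same temperature r was 0.961 to 0.980, so replicates were no more alike than the genotypes. Between temperatures it was 0.940 to 0.959. Of 20 genes listed as seed, leaf or endosperm markers 4 had a named probe set. The oleosin gene OLEO3, of seed oil bodies, lay between 489 and 736 on the 8 arrays, and the late embryogenesis abundant gene AT2G42560 between 583 and 3175. The leaf photosynthesis genes LHCB4.1 and RCA lay at 226 to 431 and at 18.8 to 34.6, and no endosperm marker had a named probe set. Seeds were measured whole, so fewer cells of a type and less RNA per cell cannot be told apart, and a direct response to temperature cannot be told apart from a difference in developmental stage at 24 h.

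The first comparison asked whether these genes differed between seeds imbibed at 4 °C and at 22 °C. The genes had been grouped as pyruvate decarboxylase and steady low-oxygen genes. Among the genes other than PDC2, the data went against steadiness for 4. Averaged over both genotypes, PDC2 rose at 4 °C, AT4G27450, AT4G39675, AT1G33055 and AT4G24110 fell, and CML38, AT3G10020, AT1G19530 and AT3G23170 did not pass the test. The test was limma on quantile-normalized log2(intensity + 1) values, with Benjamini-Hochberg adjustment over all tested probe sets and a threshold of 0.05. By that rule 1 of 9 genes was higher, where 8.65% of all tested probe sets were, and 4 of 9 were lower, against 7.74%. The median log2 difference was -0.56 over the 9 genes and 0.0056 over all tested probe sets. The genes were chosen with earlier results of these data known, so these shares describe the set and do not test it.

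**Figure D1:**
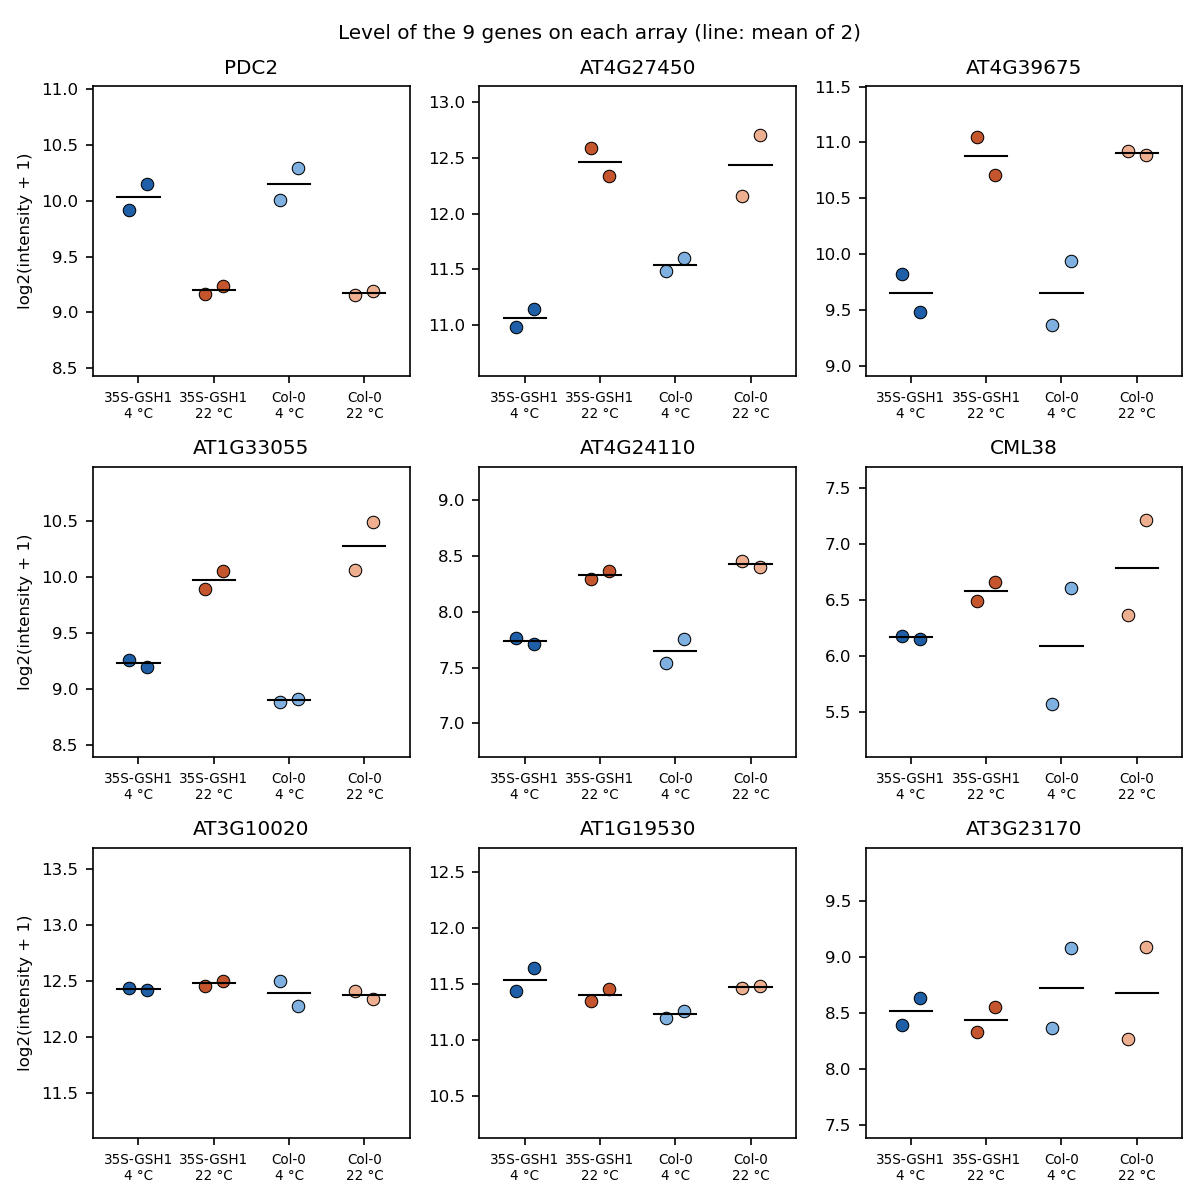
Normalized log2(intensity + 1) of the 9 genes on each of the 8 arrays. Each point is 1 array (replicate 1 left, replicate 2 right), lines are means of 2, and every panel spans the same number of log2 units. The 4 °C arrays of PDC2 lie above all 22 °C arrays, those of AT4G27450, AT4G39675, AT1G33055 and AT4G24110 lie below, and in the other 4 genes the temperatures overlap.

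PDC2, the enzyme gene of the set, was the one member that rose. Its deposited intensities were 1017 and 1074 in 35S-GSH1 seeds at 4 °C, against 570.4 and 602 in 35S-GSH1 seeds at 22 °C. In Col-0 seeds they were 1095 and 1153 at 4 °C, against 588 and 580.5 at 22 °C. All 4 arrays at 4 °C were therefore above all 4 at 22 °C, and the 22 °C arrays of both genotypes lay within a narrow band. The log2 difference over both genotypes was 0.90 (1.87-fold, SE 0.11, 4 arrays per temperature, limma adjusted p = 0.000119), with a 95% interval of 0.66 to 1.15. Within 35S-GSH1 it was 0.83 (SE 0.16, limma adjusted p = 0.00748) and within Col-0 0.98 (SE 0.16, limma adjusted p = 0.00257). The call in 35S-GSH1 was lost without 35S-GSH1 4 °C replicate 2 (0.71, limma adjusted p = 0.102) and without 35S-GSH1 22 °C replicate 1 (0.79, limma adjusted p = 0.0671). It was also lost with arrays centred on their medians (0.69, limma adjusted p = 0.0601). The calls over both genotypes and in Col-0 held without any 1 array.

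AT4G27450, whose product is annotated as resembling aluminium-induced proteins, was lower at 4 °C in both genotypes. Its deposited intensities were 2284 and 2095 in 35S-GSH1 seeds at 4 °C, against 6121 and 4650.0 at 22 °C. Col-0 seeds had 3287 and 2835 at 4 °C, against 4829 and 6152 at 22 °C. No 4 °C array reached the lowest 22 °C array, and among the 4 °C arrays both of 35S-GSH1 were below both of Col-0. The gene fell by 1.14 on the log2 scale over both genotypes (2.21-fold lower at 4 °C, SE 0.12, limma adjusted p = 3.31e-05). The log2 difference was -1.40 in 35S-GSH1 (SE 0.17, limma adjusted p = 0.000421) and -0.89 in Col-0 (SE 0.17, limma adjusted p = 0.00746). The Col-0 call was lost when Col-0 4 °C replicate 1 was left out (limma adjusted p = 0.0569), when Col-0 22 °C replicate 2 was left out (-0.62, limma adjusted p = 0.0599) and with no filter on dim probe sets (limma adjusted p = 0.0648).

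AT4G39675 had the largest drop of the 9 genes when the genotypes were averaged. Its deposited intensities were 944 and 675 in 35S-GSH1 seeds at 4 °C, against 2087 and 1508 at 22 °C. In Col-0 seeds they were 684 and 884 at 4 °C, against 1989 and 1810.1 at 22 °C. Every 4 °C array was below every 22 °C array, and the genotypes overlapped at 4 °C. The gene fell by 1.24 over both genotypes (2.36-fold lower at 4 °C, SE 0.14, limma adjusted p = 5.16e-05). The differences within the genotypes were -1.23 in 35S-GSH1 and -1.26 in Col-0 (SE 0.20 each), with limma adjusted p-values of 0.00256 and 0.00206, and leaving out any 1 array ended neither call.

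AT1G33055 gave 638 and 557 in 35S-GSH1 seeds at 4 °C, against 961 and 1031 at 22 °C, as deposited intensities. Col-0 seeds gave 488 and 462 at 4 °C, against 1122 and 1409 at 22 °C. The temperatures did not overlap in either genotype, and Col-0 held both the highest and the lowest group. The gene fell by 1.07 over both genotypes (2.09-fold lower at 4 °C, SE 0.12, limma adjusted p = 4.68e-05). In 35S-GSH1 it fell by 0.75 (SE 0.17, limma adjusted p = 0.0185) and in Col-0 by 1.38 (SE 0.17, limma adjusted p = 0.00029). The 35S-GSH1 call did not survive the omission of a single 35S-GSH1 array. Leaving out 4 °C replicate 1 gave a limma adjusted p of 0.0890 and leaving out 4 °C replicate 2 gave 0.127. Leaving out 22 °C replicate 1 gave a limma adjusted p of 0.0678 and leaving out 22 °C replicate 2 gave 0.120. The Col-0 call held without any 1 array.

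AT4G24110 had the smallest of the 4 drops, and also one of the smallest spreads between replicates. Deposited intensities were 228 and 207 in 35S-GSH1 seeds at 4 °C, against 306 and 322 at 22 °C. Col-0 seeds had 194 and 214 at 4 °C, against 354 and 330 at 22 °C. The temperatures did not overlap. The gene fell by 0.68 over both genotypes (1.61-fold lower at 4 °C, SE 0.12, limma adjusted p = 0.00131). In Col-0 the log2 difference was -0.78 (SE 0.17, limma adjusted p = 0.0122), and the call ended when Col-0 4 °C replicate 1 (-0.67, limma adjusted p = 0.0984) or Col-0 22 °C replicate 1 (-0.75, limma adjusted p = 0.0692) was left out. In 35S-GSH1 it was -0.59 (SE 0.17, limma adjusted p = 0.0539), which missed the threshold and passed it with the filter set at the 60th percentile (limma adjusted p = 0.0419), with robust priors (0.0460) and in a fit on the 4 arrays of that comparison alone (0.0473).

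CML38 encodes a calcium-binding protein that is known to join stress granules in cells short of oxygen. It was the dimmest member, with deposited intensities of 78.4 and 70.3 in 35S-GSH1 seeds at 4 °C, against 84.8 and 96.6 at 22 °C. Col-0 seeds had 49.7 and 100.3 at 4 °C, against 78.1 and 142 at 22 °C. The 35S-GSH1 arrays were separated by temperature, but the Col-0 arrays overlapped, with replicate 2 well above replicate 1 at both temperatures. Its log2 difference over both genotypes was -0.56 (SE 0.22, 95% interval -1.04 to -0.078, limma adjusted p = 0.110). It passed the threshold when Col-0 4 °C replicate 2 was left out (-0.82, limma adjusted p = 0.0159) and when Col-0 22 °C replicate 1 was (-0.77, limma adjusted p = 0.0436). It did not pass on omission of any other array, and over all single-array omissions the difference ran from -0.82 to -0.30. In 35S-GSH1 alone the difference was -0.41 (limma adjusted p = 0.534). In Col-0 alone it was -0.70 (limma adjusted p = 0.211), and omission of Col-0 4 °C replicate 2 gave -1.23 (limma adjusted p = 0.0450), whereas omission of Col-0 4 °C replicate 1 gave -0.18 (limma adjusted p = 0.850).

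The other 3 genes had differences near 0, with intervals of unequal width. AT3G10020, which encodes a protein of unknown function, had deposited intensities of 6587 and 4932 in 35S-GSH1 seeds at 4 °C, against 5707 and 5287 at 22 °C. In Col-0 seeds it had 6606 and 4299.6 at 4 °C, against 5529 and 4885 at 22 °C. After normalization its 8 arrays lay between 12.28 and 12.50 log2 units. The log2 difference was -0.017 over both genotypes (SE 0.092, limma adjusted p = 0.929), and its 95% interval of -0.21 to 0.18 spans ratios of 0.862 to 1.13.

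AT1G19530 was also bounded closely over both genotypes. Its deposited intensities were 3185 and 3017 in 35S-GSH1 seeds at 4 °C, against 2491 and 2556 at 22 °C. They were 2689.6 and 2251 in Col-0 seeds at 4 °C, against 2839 and 2678 at 22 °C. The normalized values overlapped between temperatures in 35S-GSH1 and did not in Col-0, where the 4 °C arrays were lower. The log2 difference was -0.054 over both genotypes (SE 0.096, 95% interval -0.26 to 0.15, limma adjusted p = 0.760), 0.14 in 35S-GSH1 (limma adjusted p = 0.653) and -0.24 in Col-0 (limma adjusted p = 0.322).

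AT3G23170 was close to 0 but with a wide interval. Its deposited intensities were 356 and 386 in 35S-GSH1 seeds at 4 °C, against 313 and 370.1 at 22 °C. Col-0 seeds had 342 and 511 at 4 °C, against 309 and 540.2 at 22 °C. The spread between Col-0 replicates was larger than any difference between groups. The log2 difference over both genotypes was 0.062 (SE 0.19, limma adjusted p = 0.867), and its 95% interval of -0.34 to 0.46 does not exclude a ratio as low as 0.791 or as high as 1.38. On the scaling alternatives the small differences of AT3G10020, AT1G19530 and AT3G23170 changed sign, while those of the 5 genes that passed kept theirs. On the deposited scale the median difference of all tested probe sets over both genotypes was 0.11 log2 units, against 0.0056 after quantile normalization.

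**Figure D2:**
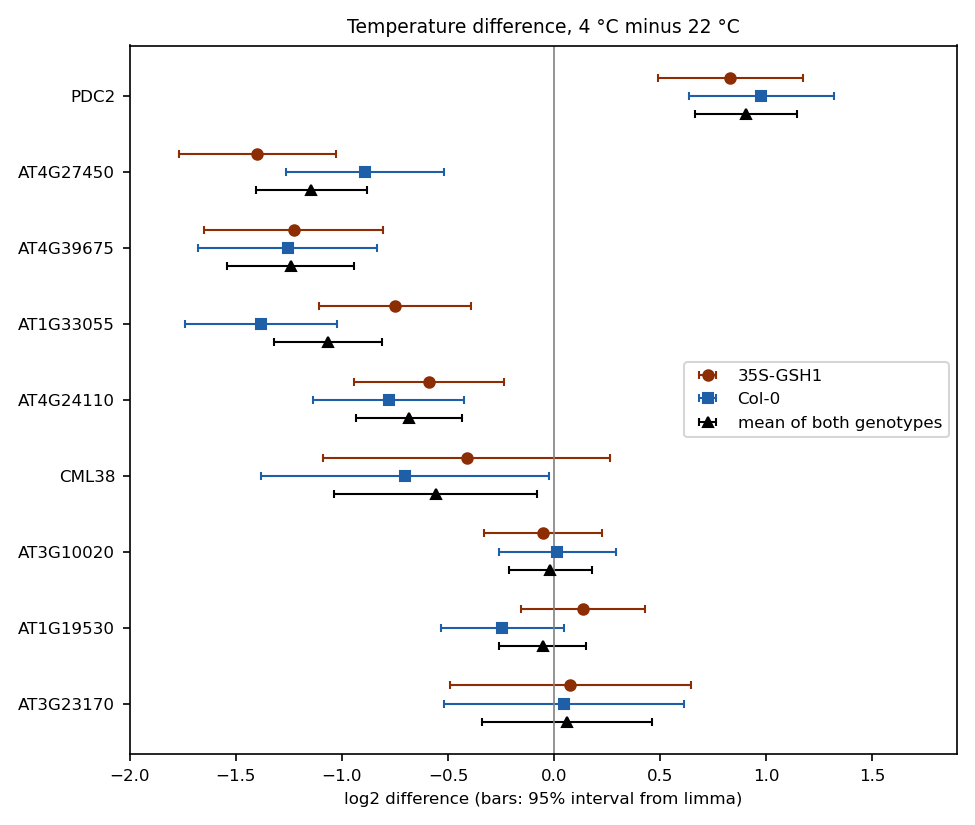
Log2 difference between 4 °C and 22 °C for each of the 9 genes, within 35S-GSH1, within Col-0 and averaged over both, with 95% intervals from limma. Averaged over both genotypes, PDC2 lies right of 0 (0.90), and AT3G10020, AT1G19530 and AT3G23170 sit at 0. The averages of the 4 genes that fell and of CML38 lie left of 0 with intervals that exclude it. CML38 missed the adjusted threshold, and within 35S-GSH1 its interval includes 0 (-1.09 to 0.27).

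Within the genotypes, 4 of 9 genes passed the temperature test in 35S-GSH1, 1 higher and 3 lower, and 5 of 9 in Col-0, 1 higher and 4 lower. Of all tested probe sets 5.58% were called in 35S-GSH1 (2.8% higher and 2.78% lower) and 6.98% in Col-0 (3.68% higher and 3.3% lower). The replicates did not overlap between temperatures for 7 of 9 genes in 35S-GSH1, where 49.7% of all tested probe sets did not overlap, and for 6 of 9 in Col-0, against 49.8%. Over both genotypes, with 4 arrays on each side, 5 of 9 did not overlap, against 20.8% of all tested probe sets. Over both genotypes 16.4% of all tested probe sets were called in either direction. When limma's variances were moderated without their trend on intensity, 0 genes passed in 35S-GSH1 and 1 in Col-0, which was AT1G33055, while over both genotypes 5 passed.

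The spread between replicates also differed among the 9 genes. The pooled standard deviation within groups was 0.084 log2 units for AT3G10020, 0.085 for AT1G19530 and 0.086 for AT4G24110, and fewer than 4% of tested probe sets had a smaller one (3.54%, 3.61% and 3.79%). PDC2 followed at 0.14 and AT1G33055 at 0.16. AT4G27450 (0.22) and AT4G39675 (0.26) were near the median of all tested probe sets, which was 0.25. CML38 and AT3G23170 had the largest spreads, 0.48 and 0.40, and 85.0% and 78.4% of tested probe sets had smaller ones. In CML38 the spread lay in Col-0, where replicates had an SD of 0.74 at 4 °C and 0.60 at 22 °C, against 0.018 and 0.12 in 35S-GSH1. AT3G23170 had SDs of 0.50 and 0.59 in Col-0, against 0.17 and 0.16 in 35S-GSH1. With 2 arrays per group, this difference in spread between genotypes was not tested.

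**Figure D3:**
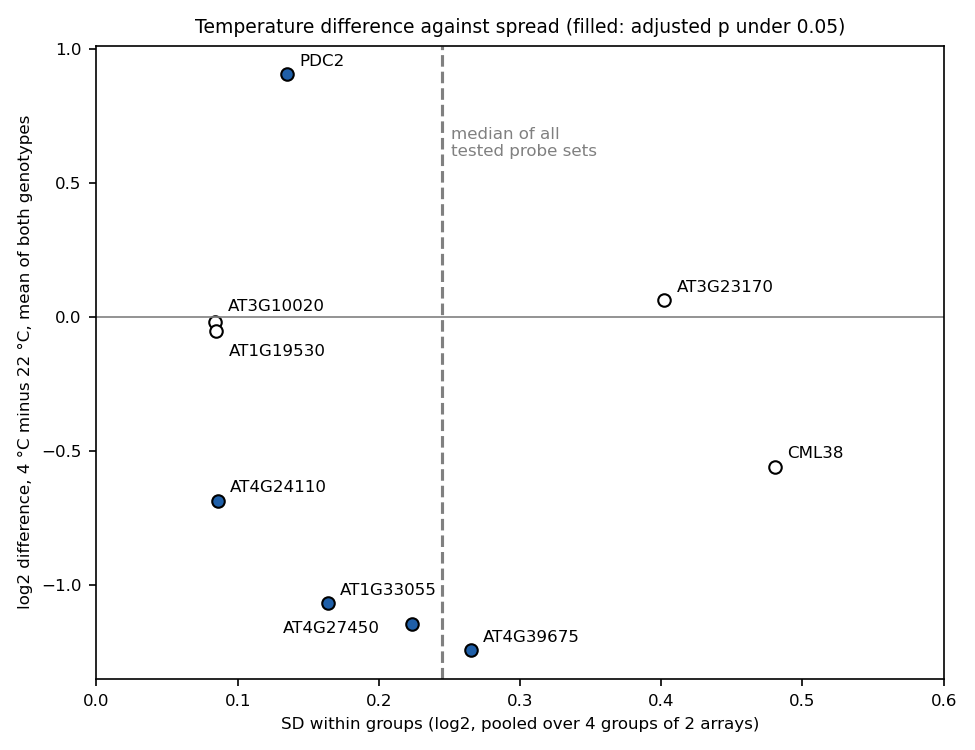
Log2 difference between 4 °C and 22 °C, averaged over both genotypes, against the SD within groups for the 9 genes. Filled points passed the limma test, and the dashed line is the median SD of all tested probe sets, 0.25. AT3G10020 and AT1G19530 combine a difference near 0 with a small SD, whereas AT3G23170 and CML38 have SDs of 0.40 and 0.48.

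The range between the highest and lowest group mean gives another view of steadiness. It was 0.11 log2 units for AT3G10020, and 1.65% of tested probe sets had a smaller range. It was 0.29 for AT3G23170 and 0.31 for AT1G19530, below the median of 0.51 over all tested probe sets. The range was 0.98 for PDC2 and 0.78 for AT4G24110, and it reached 1.26 for AT4G39675, 1.38 for AT1G33055 and 1.40 for AT4G27450. The order of group means in PDC2 was Col-0 at 4 °C (10.15), 35S-GSH1 at 4 °C (10.03), 35S-GSH1 at 22 °C (9.20) and Col-0 at 22 °C (9.18), and groups of equal temperature did not differ beyond the spread of replicates. In AT4G27450 it was 35S-GSH1 at 22 °C (12.46), Col-0 at 22 °C (12.43), Col-0 at 4 °C (11.54) and 35S-GSH1 at 4 °C (11.06), where the first pair overlapped and the others did not. In AT1G33055 it was Col-0 at 22 °C (10.28), 35S-GSH1 at 22 °C (9.98), 35S-GSH1 at 4 °C (9.23) and Col-0 at 4 °C (8.90), and no neighbouring groups overlapped.

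The second comparison asked whether GSH1 overexpression was accompanied by other levels of the 9 genes. None of the 9 passed at either temperature by limma, and neither did any of the 13648 tested probe sets (0% called), while 439 had an unadjusted p under 0.05 at 4 °C and 779 at 22 °C. At 4 °C the largest differences of the set were -0.48 for AT4G27450 (SE 0.17, 95% interval -0.85 to -0.11, limma adjusted p = 1), 0.33 for AT1G33055 (SE 0.17, limma adjusted p = 1) and 0.31 for AT1G19530 (SE 0.14, limma adjusted p = 1). AT4G27450 and AT1G19530 were the 2 members with an unadjusted p under 0.05, 0.0154 and 0.0385. Replicates did not overlap between genotypes for 3 of 9 genes at 4 °C, where 32.3% of all tested probe sets did not, and for 4 of 9 at 22 °C, against 33.4%. PDC2 had a log2 difference of -0.12 at 4 °C (95% interval -0.46 to 0.22, limma adjusted p = 1).

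At 22 °C the 9 differences lay between -0.30 (AT1G33055, SE 0.17, limma adjusted p = 0.870) and 0.11, and 0 members had an unadjusted p under 0.05. PDC2 had 0.026 (95% interval -0.32 to 0.37, limma adjusted p = 0.986) and AT4G27450 0.031 (95% interval -0.34 to 0.40, limma adjusted p = 0.985). Averaged over both temperatures, 0 of 9 members passed, where 0.022% of tested probe sets did, and the largest member difference was 0.22 in size. The number of arrays limits the precision, with a median half-width of the 95% interval of 0.52 log2 units over all tested probe sets.

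The interaction subtracts the temperature difference seen in Col-0 from the one seen in 35S-GSH1, and it was tested directly. By limma 0 of 9 members and 0% of tested probe sets passed, with 453 probe sets at an unadjusted p under 0.05. AT1G33055 had the largest value among the members, 0.63 (SE 0.24, 95% interval 0.13 to 1.14, unadjusted p = 0.0179, limma adjusted p = 1), its drop at 4 °C being smaller in 35S-GSH1. AT4G27450 had -0.51 (SE 0.24, 95% interval -1.03 to 0.016, limma adjusted p = 1), the drop being larger in 35S-GSH1, and AT1G19530 had 0.38 (limma adjusted p = 1). The interaction of AT4G27450 was -0.24 when Col-0 22 °C replicate 1 was left out and -0.78 when replicate 2 of that group was, and that of AT1G33055 ran from 0.42 to 0.85 on omission of single arrays. PDC2 had -0.15 (95% interval -0.63 to 0.34, limma adjusted p = 1). AT4G24110, the member called in Col-0 and not in 35S-GSH1, had 0.19 (95% interval -0.31 to 0.69, limma adjusted p = 1), so its temperature difference is not shown to differ between genotypes.

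**Figure D4:**
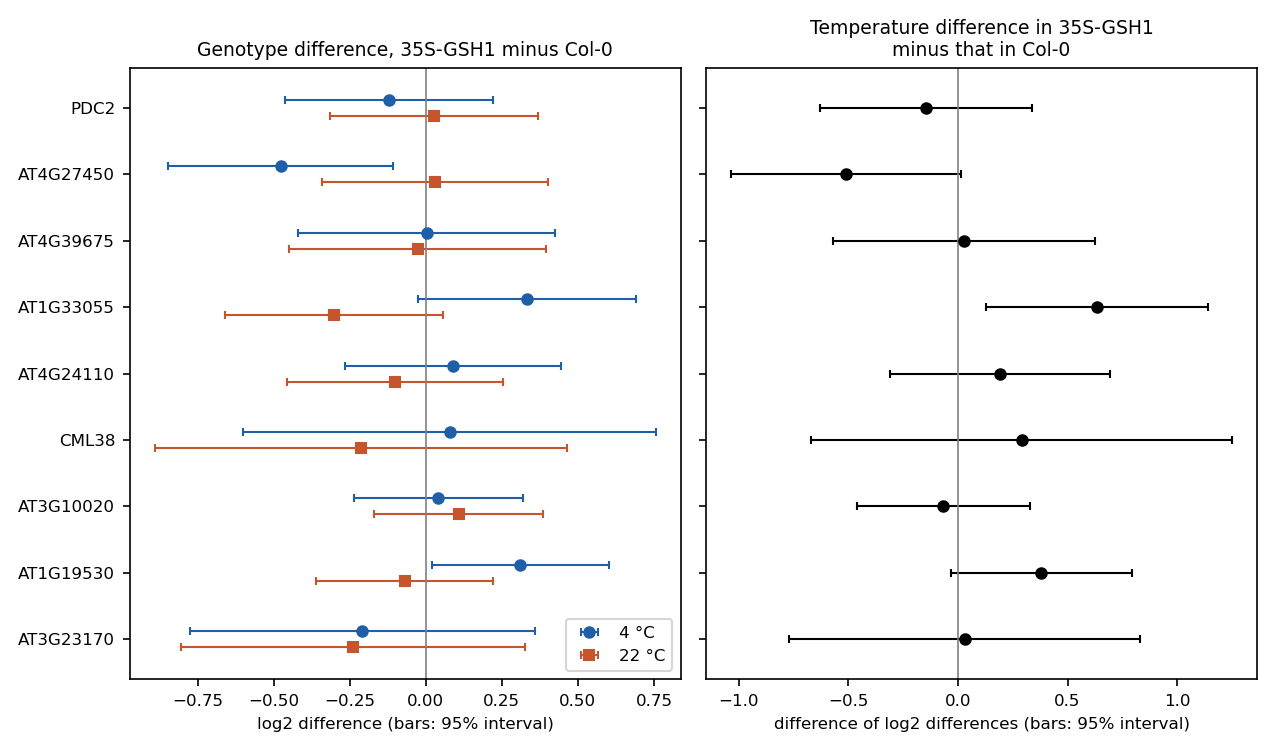
Left, log2 difference between 35S-GSH1 and Col-0 at 4 °C and at 22 °C. Right, the interaction (temperature difference of 35S-GSH1 minus the one of Col-0). Bars are 95% intervals from limma. No gene passed after adjustment, and the values farthest from 0 are those of AT4G27450 at 4 °C (-0.48, left) and AT1G33055 (0.63, right).

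Other genes of fermentation and of the low-oxygen response were then set beside the 9. Of 14 genes listed for ethanol and lactate fermentation and neighbouring steps, 3 had a named probe set, PDC2 among them. LDH (AT4G17260), which encodes lactate dehydrogenase, had a log2 difference of 0.87 over both genotypes (SE 0.21, limma adjusted p = 0.0116) and so rose at 4 °C with PDC2. LDH passed in Col-0 (1.34, limma adjusted p = 0.0158, or 0.88 with a pseudocount of 16) and not in 35S-GSH1 (0.40, limma adjusted p = 0.518), and its interaction of -0.94 did not pass (limma adjusted p = 1). The Col-0 call ended on omission of each Col-0 array in turn (limma adjusted p up to 0.0953), and the call over both genotypes was lost without 35S-GSH1 4 °C replicate 1 (0.66, limma adjusted p = 0.0706). ACS (AT5G36880), acetyl-CoA synthetase, had 0.18 (SE 0.13, limma adjusted p = 0.399). The median of these 3 genes was 0.87, which is the value of LDH itself, against 0.0056 over all tested probe sets. The alcohol dehydrogenase gene ADH1 was listed but had no named probe set.

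Of 16 genes of oxygen sensing 1 had a named probe set, HRA1 (AT3G10040), a trihelix factor that restrains the group VII factor RAP2.12. HRA1 fell by 1.08 over both genotypes (SE 0.16, limma adjusted p = 0.000495). Its 4 °C arrays were below its 22 °C arrays in both genotypes.

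Of 25 other low-oxygen-induced genes 11 were tested, and over both genotypes 8 fell, 1 rose and 2 did not pass, where 7.74% of all tested probe sets were lower and 8.65% higher. In Col-0 7 were called lower, against 3.3% of all tested probe sets, and in 35S-GSH1 6 were, against 2.78%. AT5G10040 and AT5G44730 were called lower in Col-0 only, and AT1G74940 in 35S-GSH1 only. No interaction of the 11 passed. The list's median was -1.37, which is the value of AT1G74940 itself, against 0.0056 over all tested probe sets. The list was written with earlier results of these data known, so these values describe it and do not test it. HRU1 (AT3G03270), a universal stress protein, fell by 2.37 (SE 0.17, limma adjusted p = 9.82e-07). The rhodanese-like gene AT2G17850 fell by 1.68, the kelch-repeat gene AT3G27220 by 1.23, AT5G66985 by 2.62 and AT1G74940 by 1.37, each with a limma adjusted p of at most 0.00904. AT4G33560 fell by 4.32 and AT5G10040 by 2.74, and the mean of both at 4 °C (0.93 and 2.06) was below the filter level of 2.86. They passed the filter through their 22 °C arrays, as did AT5G42200 (mean of 2.60 at 4 °C). The filter therefore favoured a lower value at 4 °C for these genes, and their falls do not add weight to the counts. AT4G33560 and AT5G10040 are in the counts of 8 over both genotypes and 7 in Col-0. AT4G33560 is also in the count of 6 in 35S-GSH1, and the list's median includes all of these genes. With a pseudocount of 16 in place of 1 the differences were -1.66 for AT4G33560, -1.13 for AT5G10040 and -0.69 for AT1G74940, so the sizes of all 3 are uncertain, while their calls held. AT5G44730 fell by 0.63 (limma adjusted p = 0.0237), and this call ended on omission of 5 of the 8 arrays in turn, namely 35S-GSH1 4 °C replicate 1 and 22 °C replicates 1 and 2, Col-0 4 °C replicate 2 and Col-0 22 °C replicate 2 (limma adjusted p of 0.0530 to 0.0962). It also ended on the deposited scale (limma adjusted p = 0.0833), after median centring (0.0606) and with no filter (0.0707). WIP4 (AT4G10270), of a wound-responsive family, rose by 1.18 (SE 0.16, limma adjusted p = 0.000253). The hypoxia-responsive family gene AT5G27760 (-0.24, limma adjusted p = 0.259) and AT5G42200 (-1.04, limma adjusted p = 0.168) did not pass. PDC2 and WIP4 thus were called higher in both genotypes, among low-oxygen genes of which more fell than rose. The call of PDC2 in 35S-GSH1 depended on single arrays, and that of WIP4 in Col-0 had a limma adjusted p of 0.0343. LDH passed over both genotypes and in Col-0 and not in 35S-GSH1. Its calls depended on single arrays, and over both genotypes its temperatures overlapped.

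Of 8 calmodulin-like relatives of CML38, 7 had a named probe set and 2 passed the filter on dim probe sets. CML23 had a log2 difference of 1.34 over both genotypes (SE 0.53, limma adjusted p = 0.102), and CML42 had -0.19 (limma adjusted p = 0.674). CML23 was dim at 22 °C, with a mean log2 value below the filter level, and a pseudocount of 16 gave a difference of 0.40. On omission of single arrays it ran from 0.83 to 1.86, and it passed in the one case of 35S-GSH1 22 °C replicate 1 (1.86, limma adjusted p = 0.0296).

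**Figure D5:**
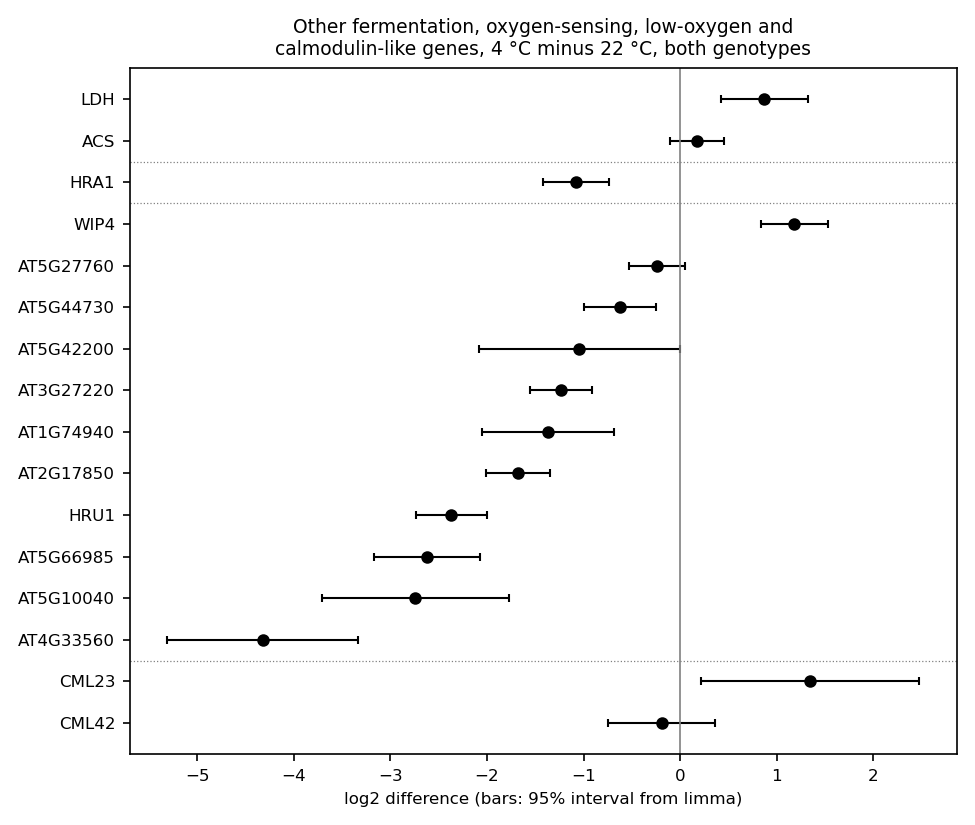
Log2 difference between 4 °C and 22 °C, averaged over both genotypes, for the tested genes of the 4 lists other than the 9 members, with 95% intervals from limma. Dotted lines separate, from the top, fermentation, oxygen sensing, other low-oxygen and calmodulin-like genes. LDH (0.87) and WIP4 (1.18) rose, and most of the other low-oxygen genes lie left of 0, down to AT4G33560 at -4.32. AT4G33560 passed the filter through its 22 °C arrays, and its difference was -1.66 with a pseudocount of 16.

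Patterns over the 8 arrays were compared by the root mean square difference of values centred on each gene's mean. Within the set, AT4G27450 and AT4G39675 were each other's nearest gene (0.29 log2 units), as were AT1G33055 and AT4G24110 (0.26), and AT3G10020 and AT1G19530 (0.15). The nearest member to PDC2 was the flat AT3G10020, at 0.49, which is more than the 0.46 by which PDC2 itself departs from its own mean. Among all named tested genes the nearest to PDC2 were AT1G76580 (0.047), AT1G22570 (0.082) and AT2G30990 (0.092), and the nearest to CML38 were AT3G14780 (0.13), AT4G30570 (0.16) and WRKY53 (0.17). These are descriptions of 8 arrays that share their normalization. AT3G14780 lay just above the filter level of 2.86 at 4 °C, with a mean log2 value of 2.91. WRKY53 lay below that level at 4 °C (2.74) and passed the filter through its 22 °C arrays (3.19). The filter therefore favoured a lower value at 4 °C for WRKY53.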

How the data were processed

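Biotin-labelled cRNA from whole seeds was hybridized to one-colour Affymetrix arrays, 1 per sample, per the labels. The authors deposited a linear intensity per probe set and array (22746 probe sets, 8 arrays). The submitters' processing notes name GCOS without its settings. The table had no detection calls. Trimmed means differed from their median by up to 9.71%, so the arrays were quantile normalized, which hides a shift of most transcripts one way. Values were log2(intensity + 1), so the sizes of differences of dim probe sets depend on the pseudocount and are uncertain. Probe sets under the 40th percentile of mean log2 value (2.86) were left out, which left 13648.

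Limma 3.58.1 in R 4.3.3 fitted a coefficient per group to all 8 arrays (4 residual and 9.93 prior degrees of freedom, intensity trend), with 7 two-sided contrasts, and was tested on simulated data. Genes were named from probe sets paired with 1 gene (13513), matched to the RefSeq table of TAIR10.1 for names only. The members and lists were chosen with earlier results of these data known. Every member was named, as were list genes that passed in any contrast, otherwise up to 3 with the smallest adjusted p, and the 3 genes most like PDC2 and CML38. List genes that did not pass were also given where they completed a count. Alternatives changed the pseudocount, scaling, filter, moderation, arrays fitted and replicate block, and left out each array.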

Additional observations from a re-analysis of the deposited data

How the results depend on the processing

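Members called by limma over both genotypes were 5 or 6 under every alternative run. Without the intensity trend the counts of probe sets were 117 in 35S-GSH1, 153 in Col-0 and 1153 over both, with 0 members called in 35S-GSH1 and 1 in Col-0. Leaving out 1 array gave 255 to 795 probe sets and 2 to 4 members in 35S-GSH1, and 430 to 843 probe sets and 3 to 6 members in Col-0. The fewest members were called on omission of 35S-GSH1 4 °C replicate 2 or 22 °C replicate 1 (2 each), and of Col-0 4 °C replicate 1 (3). On the deposited scale 68.9% of calls over both genotypes were higher, against 52.7%. Of the 35S-GSH1 calls 39.3% were higher after median centring, against 50.1%.

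For genotype, leaving out 1 array gave 0 or 1 probe sets at 22 °C and at 4 °C, and 0 to 8 over both temperatures, against 3 in the reported fit. A pseudocount of 16 gave 2 at 22 °C and 6 over both temperatures. Over both temperatures the count was 0 on the deposited scale, with no filter and without the trend, and 1 after median centring.

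Replicate numbers came from the labels, and the deviations of same-numbered arrays correlated with r of 0.051 to 0.14 over 6 pairs of groups, above 0.1 in 3, so the numbers were not taken as pairs. With the replicate number as a block the temperature counts were 1386 in 35S-GSH1, 1692 in Col-0 and 3020 over both genotypes. In the reported fit they were 762, 953 and 2237. The block gave 1 for genotype at 22 °C and 10 for genotype over both temperatures. CML38 over both genotypes (adjusted p = 0.0263) and AT4G24110 in 35S-GSH1 (adjusted p = 0.0206) then passed.

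Sign changes were found for differences that passed in no setting. On the deposited scale AT3G10020 had 0.053 in 35S-GSH1 and 0.045 over both genotypes, AT1G19530 0.066 over both genotypes, and AT4G27450 -0.031 for genotype at 22 °C. After median centring AT3G10020 had -0.038 in Col-0, and AT3G23170 -0.025 in 35S-GSH1, -0.042 in Col-0 and -0.033 over both. Leaving out 1 array gave AT3G10020 -0.094 to 0.13 in Col-0 and -0.072 to 0.038 over both. It gave AT3G23170 -0.042 to 0.20 in 35S-GSH1, -0.37 to 0.46 in Col-0 and -0.14 to 0.27 over both. LDH in 35S-GSH1 ran from -0.026 to 0.83 and CML42 over both from -0.43 to 0.046. For genotype, PDC2 ran from -0.012 to 0.064 at 22 °C and -0.26 to 0.023 at 4 °C, and AT4G27450 from -0.24 to 0.30 at 22 °C. The causes were not tested, and only the number of arrays is known to limit precision.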

Other observations

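The replicate numbers also lined up with the level of some members. AT3G23170 was higher on replicate 2 than on replicate 1 in 4 of 4 groups, by 0.24 and 0.22 log2 units in 35S-GSH1 at 4 °C and 22 °C, and by 0.71 and 0.83 in Col-0. PDC2 and AT1G19530 were likewise higher on replicate 2 in 4 of 4 groups, PDC2 by 0.033 to 0.29 and AT1G19530 by 0.015 to 0.21. CML38 was higher on replicate 2 in 3 of 4 groups, by 1.04 in Col-0 at 4 °C and 0.85 in Col-0 at 22 °C. In AT3G10020 and AT4G39675 replicate 2 was higher in 1 of 4 groups. What the replicate numbers stand for is not given in the sources used here, and no explanation was tested.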
